A study of Mus musculus with 12 samples.

Results

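The 10 genes of the core mammalian circadian clock described here were Arntl (the symbol under which the table holds Bmal1), Clock, Per1, Per2, Per3, Cry1, Cry2, Nr1d1, Nr1d2 and Dbp. They were picked by symbol from the 55487 genes of the table, and all 10 were among the 13280 genes with at least 1 CPM (counts scaled to 1000000 reads assigned to genes) in at least 3 of the 12 libraries, the set that was tested. The cells were a primary line of mouse mammary fibroblasts from the fat pad of a healthy B6 mouse, so the 4 groups share 1 line. Cells of the doxorubicin group were given 100 nM of this topoisomerase poison for 24 h and were lysed on day 7. Their own controls, the doxorubicin vehicle group, received water and were lysed on the same day. Cells of the peroxide group were exposed 3 times to 750 uM H2O2, each time for 2 h with 48 h of recovery, and were lysed on day 6, and the peroxide vehicle group received water on that schedule. The series presents both treatments as inducers of senescence. Vehicle cells were passaged as they grew, so passaging and treatment cannot be told apart. Each group held 3 libraries, which the labels do not describe as separate cultures, and the p-values below cover the spread between libraries, which may be technical.

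In the clock of mammalian cells, the proteins encoded by Arntl and Clock pair and switch on genes that carry E-box sequences. Among these are the Per and Cry genes, whose products gather in a complex that represses the same pair, and Nr1d1 and Nr1d2, whose nuclear receptors REV-ERB alpha and beta repress Arntl through ROR response elements. Dbp is an output gene under direct control of the pair, and its protein acts on D-box sequences, some of them in Per genes. Fibroblasts in culture keep such a rhythm cell by cell, and a medium change or serum can align the cells of a dish. The labels give neither a clock time of lysis nor a synchronising step, so the phase, the amplitude and the mean level of a rhythm cannot be told apart here.

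The promoters of 4 of these genes are shown because the treatments differed in their effect on the gene and the window holds a clock motif. Windows run from 250 bases before to 50 bases after the transcript start, 5′ to 3′ on the gene's strand, and were taken from RefSeq on GRCm38.p6. They lie at chr7:113207261-113207560 on the plus strand for Arntl, and on the minus strand at chr4:151044616-151044915 for Per3, chr10:85185005-85185304 for Cry1 and chr11:98775328-98775627 for Nr1d1. Capitals mark the core of a ROR response element in Arntl, the D-boxes in Per3, an E-box (CACGTG) and its variant E′-box (AACGTG, the reverse complement of CACGTT) in Cry1, and an E′-box in Nr1d1.
Arntl: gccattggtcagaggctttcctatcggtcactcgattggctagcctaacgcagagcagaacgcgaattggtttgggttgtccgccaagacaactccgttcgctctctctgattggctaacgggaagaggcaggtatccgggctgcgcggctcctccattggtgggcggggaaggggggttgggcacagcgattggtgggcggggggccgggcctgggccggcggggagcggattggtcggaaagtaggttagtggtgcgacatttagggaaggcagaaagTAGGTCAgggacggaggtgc
Per3: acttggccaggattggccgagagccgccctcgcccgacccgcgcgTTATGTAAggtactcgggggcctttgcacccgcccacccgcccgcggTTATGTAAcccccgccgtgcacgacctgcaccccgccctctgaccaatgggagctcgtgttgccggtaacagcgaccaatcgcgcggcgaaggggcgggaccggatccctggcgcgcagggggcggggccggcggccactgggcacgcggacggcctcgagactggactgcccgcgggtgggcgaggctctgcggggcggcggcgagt
Cry1: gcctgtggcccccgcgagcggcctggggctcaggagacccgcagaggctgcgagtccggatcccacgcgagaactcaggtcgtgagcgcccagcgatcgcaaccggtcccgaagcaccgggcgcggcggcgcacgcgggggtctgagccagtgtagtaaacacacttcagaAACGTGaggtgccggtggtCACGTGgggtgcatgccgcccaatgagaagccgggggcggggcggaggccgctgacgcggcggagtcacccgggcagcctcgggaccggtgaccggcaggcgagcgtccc
Nr1d1: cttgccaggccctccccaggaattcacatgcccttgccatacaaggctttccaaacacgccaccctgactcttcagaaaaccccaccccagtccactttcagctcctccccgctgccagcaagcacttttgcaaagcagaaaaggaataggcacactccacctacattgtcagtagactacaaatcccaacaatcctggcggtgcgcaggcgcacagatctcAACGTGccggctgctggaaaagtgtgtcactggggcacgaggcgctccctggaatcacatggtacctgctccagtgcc

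Of the 10 genes, 9 matched a window and 13 windows were searched on both strands, with positions counted from the transcript start. The E-box CACGTG was found in Cry1 at -60 and in Per1 at -166, and in 7.15% of the 32851 windows of the table. The E′-box CACGTT was found in Cry1 at -79, Nr1d1 at -28 and Cry2 at -166, and in 4.68% of all windows. The D-box TTANGTAA was found in Per3 at -205 and -158, and in 2.32% of all windows. The core of the ROR response element, TAGGTCA or TGGGTCA, was found in Arntl at 31 as TAGGTCA, and in 6.45% of all windows. None of the motifs overlapped another, and a match of letters says nothing of whether a factor binds there.

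Estimated depth was 17.3 to 37.6 M reads per library. A floor of 3 reads, which covers counting error only, corresponds to 0.0798 to 0.173 CPM. All 9 fibroblast markers passed the filter. Their summed CPM was 9760 to 14200 after doxorubicin against 7600 to 8470 in its vehicle, and 9710 to 11200 after peroxide against 7040 to 8590 in its vehicle. Pdgfrb averaged less after both treatments (499 against 600 CPM for doxorubicin and 507 against 528 CPM for peroxide). Vim averaged more after doxorubicin (1780 against 889 CPM) and less after peroxide (826 against 1450 CPM). The other markers had higher means after both. Of 26 markers of other cell types, 14 never reached 1 CPM in any library. The epithelial markers summed to at most 1.16 CPM. The adipocyte list summed to 1390 to 1480 CPM after doxorubicin against 2240 to 2440 CPM in its vehicle, and to 2090 to 2190 CPM after peroxide against 977 to 1170 CPM in its vehicle. Most of that was Lpl, while the lipid droplet gene Plin1 stayed at or below 0.326 CPM. Fabp4 averaged less after both treatments, with 27.5 against 50.6 CPM for peroxide, where Lpl averaged more. Adipoq averaged more after both (3.2 against 1.2 CPM for doxorubicin and 1.59 against 0.226 CPM for peroxide). Cidec also averaged more after both (1.38 against 0.279 CPM for doxorubicin and 0.174 against 0.0734 CPM for peroxide). The endothelial list, nearly all Tek, summed to 34.0 to 44.4 CPM after doxorubicin against 12.4 to 16.1 CPM in its vehicle, and to 22.1 to 27.3 CPM after peroxide against 5.57 to 9.19 CPM in its vehicle, with Cdh5 at or near 0. The leukocyte list summed to 27.1 to 32.6 CPM after doxorubicin against 11.1 to 17.6 CPM in its vehicle, and to 23.2 to 26.1 CPM after peroxide against 16.3 to 17.4 CPM in its vehicle, with Ptprc at or near 0. In the same order, Lyz2 averaged 12.3 against 2.8 CPM and 13.3 against 1.81 CPM. Csf1r averaged 12.9 against 8.34 CPM and 9.05 against 13.8 CPM, and Cd68 5.31 against 2.67 CPM and 2.64 against 1.3 CPM. The pericyte and Schwann list summed to 35.7 to 41.8 CPM after doxorubicin against 28.4 to 34.7 CPM in its vehicle, and to 42.0 to 48.6 CPM after peroxide against 29.3 to 32.1 CPM in its vehicle, with Kcnj8 at 0 in all libraries. The part of these lists in the clock results was not tested. In bulk RNA, fewer cells with a transcript and less of it per cell cannot be told apart. Peroxide replicate 2, doxorubicin vehicle replicate 3 and doxorubicin replicate 1 stood apart from their groups on the second axis of a principal component analysis. Peroxide replicate 2 lay at 48.2 there, against 16.8 and 14.2 for the rest of its group. Doxorubicin vehicle replicate 3 lay at 37.8 against 6.67 and 5.21, and doxorubicin replicate 1 at 0.0133 against -39.9 and -29.5. Calls of the clock genes that change without the first 2 or without all 3 are given both ways below.

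Per kilobase of exon, Nr1d1 was the most abundant of the 10 transcripts in all 4 groups and Per2 the least. After doxorubicin the mean levels, in CPM per kb, ran in the order Nr1d1 (43.0), Dbp (4.92), Nr1d2 (2.36), Per3 (2.15), Clock (1.53), Cry2 (1.45), Arntl (0.975), Per1 (0.669), Cry1 (0.548) and Per2 (0.257). In that order the neighbours Nr1d2 and Per3, Clock and Cry2, and Per1 and Cry1 were closer than the sum of their SDs. In the doxorubicin vehicle group Nr1d1 averaged 12.8 CPM per kb and Per2 0.271 CPM per kb. In the peroxide group they averaged 17.4 and 0.27 CPM per kb, and in the peroxide vehicle group 19.5 and 0.263 CPM per kb.

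After doxorubicin, 4 of the 10 clock genes rose (Nr1d1, Per1, Dbp and Nr1d2) and 3 fell (Cry1, Arntl and Per3) against the vehicle, while Clock, Cry2 and Per2 did not pass the test. After peroxide, Dbp, Per3 and Cry2 rose and Clock fell. Calls are from limma at an adjusted p below 0.05, two-sided, with the Benjamini-Hochberg adjustment over all 13280 genes. The 7 calls after doxorubicin compare with 49.9% of all tested genes (22.1% higher and 27.8% lower), and the 4 calls after peroxide with 50.7% (27.3% higher and 23.4% lower). The shares among the clock genes, 70.0% and 40.0%, lie on either side of those backgrounds. Without doxorubicin vehicle replicate 3 only 4 clock genes were called for doxorubicin, and without that library and peroxide replicate 2 the calls were 5 for doxorubicin (2 higher, 3 lower) and 5 for peroxide (4 higher, 1 lower). With upper-quartile scaling 2 rose and 3 fell after doxorubicin. The median absolute log2 fold change of the 10 genes was 0.38 for doxorubicin and 0.37 for peroxide, against 0.38 and 0.39 for all tested genes. Fold changes are on the log2(CPM + 1) scale, which understates changes of low genes, and each is followed by its SE.

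**Figure D1:**
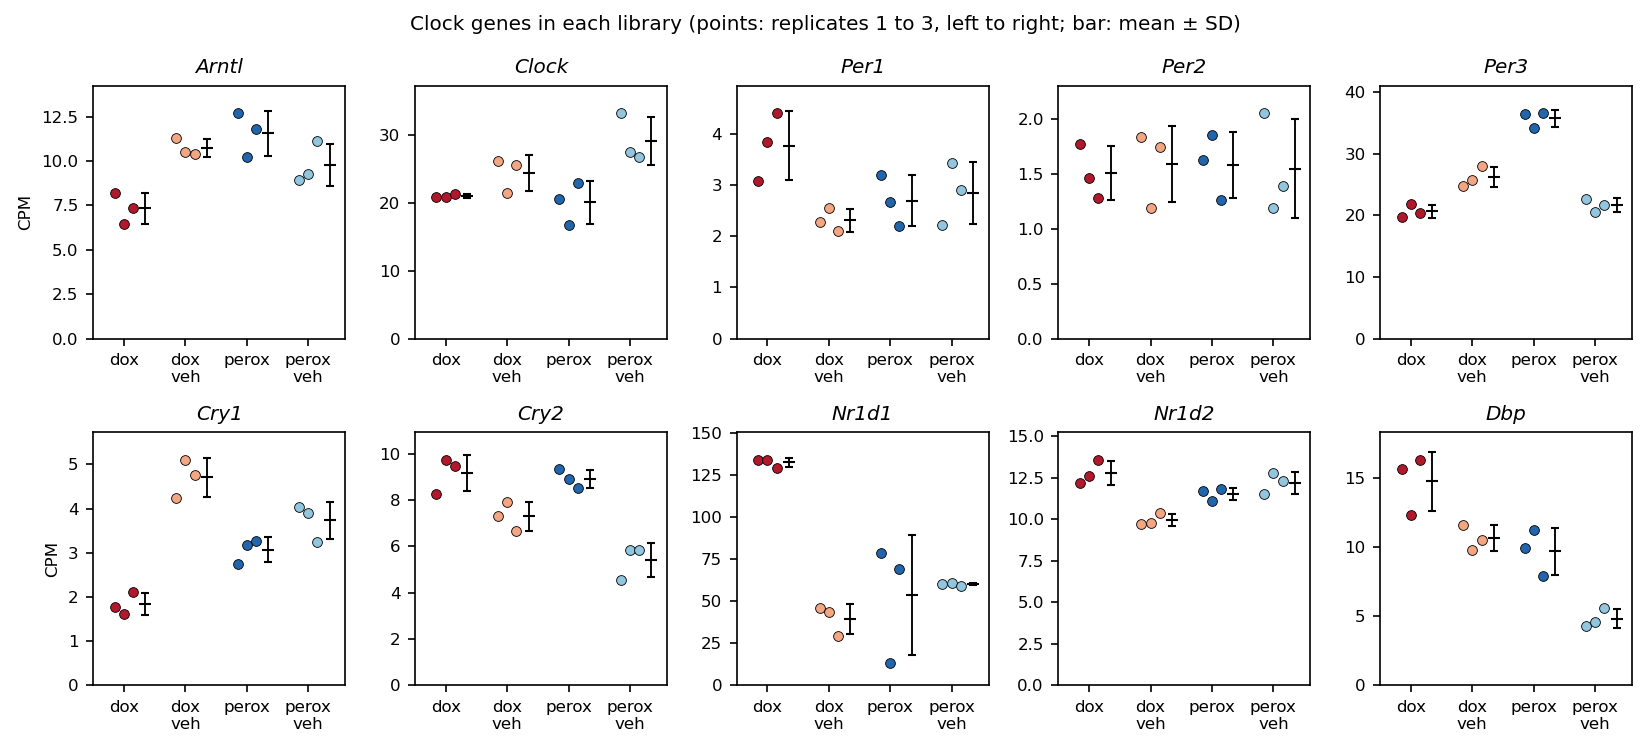
CPM of each of the 10 clock genes (vertical axes, each from 0) in every library of the 4 groups, with points for replicates 1 to 3 and bars for the mean ± SD. Nr1d1 lay at 129 to 134 CPM in the doxorubicin group, above the other 3 groups, and 1 peroxide library lay at 12.9 CPM.

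Arntl, the activator that the receptors of Nr1d1 and Nr1d2 repress, lies at chr7:113207465-113314126 (GRCm38, as all positions here). It measured 8.2, 6.46 and 7.35 CPM in doxorubicin replicates 1 to 3, against 11.3, 10.5 and 10.4 CPM in doxorubicin vehicle replicates 1 to 3. The doxorubicin libraries all lay below their vehicle libraries, and Arntl fell by 0.50 ± 0.12 on the log2 scale (limma, adjusted p = 0.0056). Peroxide replicates 1 to 3 had 12.7, 10.2 and 11.8 CPM, against 8.93, 9.29 and 11.1 CPM in the peroxide vehicle. These groups overlapped, and the log2 fold change of 0.22 did not pass (adjusted p = 0.152, 95% interval -0.05 to 0.49). The doxorubicin effect minus the peroxide effect was -0.72 ± 0.17 (limma, adjusted p = 0.0101).

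Clock, the partner of Arntl, lies at chr5:76209868-76304792. It measured 20.5, 16.7 and 22.9 CPM after peroxide, against 33.2, 27.4 and 26.7 CPM in the peroxide vehicle. The groups did not overlap, and Clock fell by 0.52 ± 0.13 on the log2 scale (limma, adjusted p = 0.00533). After doxorubicin it measured 20.8, 20.8 and 21.3 CPM, against 26.2, 21.4 and 25.5 CPM in the vehicle. That log2 fold change was -0.20 (adjusted p = 0.21, interval -0.48 to 0.08), and the difference between the treatments did not pass either (0.32, adjusted p = 0.184). Thus Arntl passed the test for doxorubicin and Clock for peroxide, and the effects of the treatments differed for Arntl.

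Per1, a repressor gene that responds quickly to many stimuli, lies at chr11:69095217-69109960. It measured 3.07, 3.83 and 4.4 CPM after doxorubicin, against 2.27, 2.55 and 2.1 CPM in its vehicle. All 3 doxorubicin libraries were higher than the vehicle libraries, and Per1 rose by 0.52 ± 0.16 on the log2 scale (limma, adjusted p = 0.018). The call was lost with no filter on low genes (adjusted p = 0.06), without doxorubicin replicate 3 (0.43, adjusted p = 0.0741) and without doxorubicin vehicle replicate 3 (0.47, adjusted p = 0.0599), and also without that library and peroxide replicate 2 (0.47, adjusted p = 0.0635). The peroxide libraries had 3.2, 2.66 and 2.2 CPM, against 2.22, 3.43 and 2.89 CPM in the vehicle, with full overlap and a log2 fold change of -0.06 (adjusted p = 0.782). The effects differed by 0.58 (adjusted p = 0.0666).

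Per2, at chr1:91415982-91459324, encodes the repressor whose loss shortens or abolishes behavioural rhythms in mice. It was the rarest member, with 1.77, 1.46 and 1.28 CPM after doxorubicin against 1.83, 1.19 and 1.74 CPM in its vehicle. Peroxide libraries had 1.62, 1.85 and 1.26 CPM, against 2.05, 1.19 and 1.39 CPM in the vehicle. Each of these values rests on an estimated 24 to 60 reads, and all groups overlapped. The log2 fold changes were -0.04 for doxorubicin (interval -0.40 to 0.31) and 0.03 for peroxide (interval -0.32 to 0.38), so changes inside those bounds were not detectable.

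Per3, at chr4:151003652-151044665, is the Per gene that is least needed for the rhythm in mice. It measured 19.8, 21.8 and 20.4 CPM after doxorubicin, against 24.8, 25.8 and 28.0 CPM in its vehicle. After peroxide it measured 36.5, 34.2 and 36.6 CPM, against 22.7, 20.5 and 21.7 CPM in the vehicle. Neither pair of groups overlapped, and they lay in opposite order. Per3 fell by 0.33 ± 0.08 on the log2 scale after doxorubicin (limma, adjusted p = 0.00545) and rose by 0.70 ± 0.08 after peroxide (limma, adjusted p = 2.58e-05). The difference of -1.03 ± 0.11 passed the test (adjusted p = 0.000164).

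Cry1, at chr10:85131700-85185064, encodes the stronger of the CRY repressors. It measured 1.77, 1.62 and 2.1 CPM after doxorubicin, against 4.24, 5.11 and 4.77 CPM in its vehicle. The doxorubicin libraries were all far below the vehicle libraries, and the ratio of the group means was 0.389. Cry1 fell by 1.01 ± 0.12 on the log2 scale (limma, adjusted p = 3.87e-05). After peroxide it measured 2.75, 3.18 and 3.27 CPM, against 4.04, 3.91 and 3.24 CPM in the vehicle, which overlapped, and the log2 fold change of -0.21 did not pass (adjusted p = 0.156, interval -0.48 to 0.05). For Cry1 the effects differed by -0.80 ± 0.17 (limma, adjusted p = 0.00582).

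Cry2, at chr2:92403646-92434043, the other CRY repressor, measured 9.34, 8.9 and 8.55 CPM after peroxide, against 4.55, 5.86 and 5.84 CPM in the peroxide vehicle. The groups did not overlap, and Cry2 rose by 0.64 ± 0.12 on the log2 scale (limma, adjusted p = 0.000899). After doxorubicin it measured 8.29, 9.76 and 9.47 CPM, against 7.3, 7.93 and 6.67 CPM in the vehicle. Those libraries did not overlap, but the log2 fold change of 0.29 fell short of the threshold (adjusted p = 0.0565). It passed without doxorubicin replicate 1 (0.36, adjusted p = 0.0378) and without peroxide vehicle replicate 1 (0.29, adjusted p = 0.041). It also passed with median-of-ratios scaling (0.35, adjusted p = 0.0319), array weights (0.30, adjusted p = 0.00899), no trend (adjusted p = 0.0396) and a filter of 5 CPM (adjusted p = 0.0493). In the remaining settings it did not pass. The effects differed by -0.34 (adjusted p = 0.129).

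**Figure D2:**
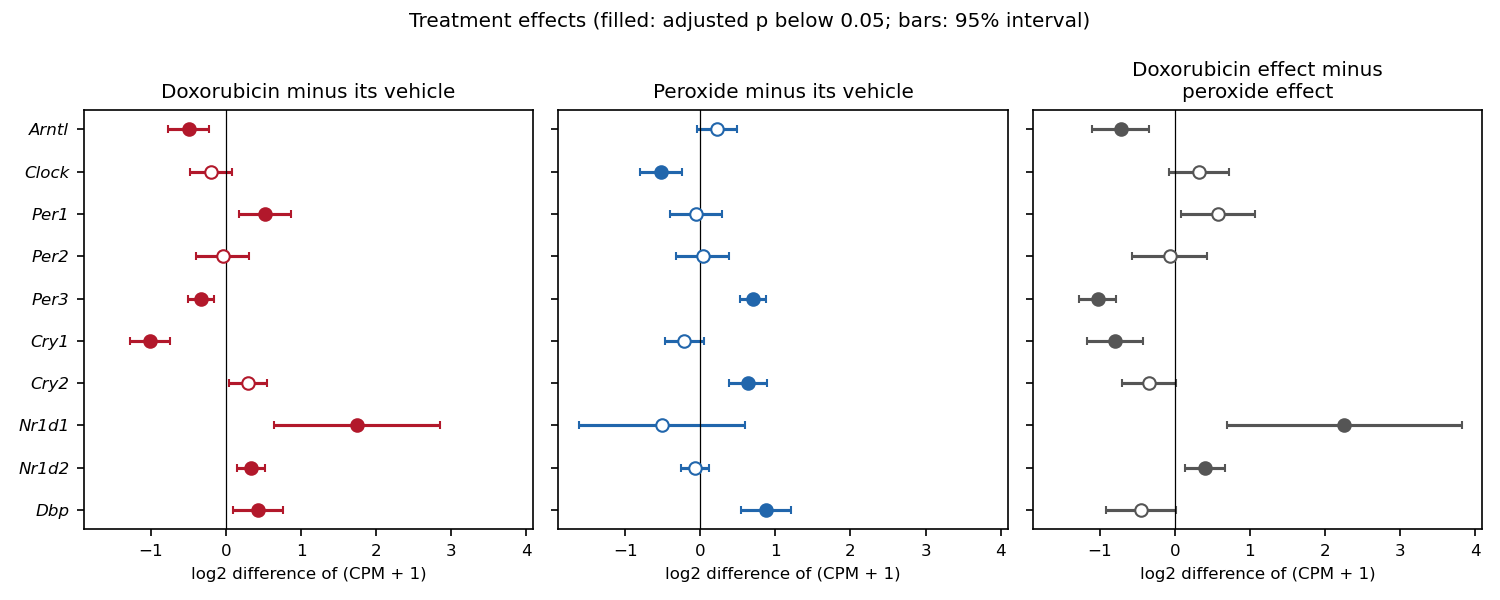
Log2 fold changes of the 10 clock genes with 95% intervals for doxorubicin and for peroxide, each against its own vehicle, and for the difference between these effects (horizontal axes, log2(CPM + 1) scale). Filled points passed at an adjusted p below 0.05. Per3 lies at -0.33 for doxorubicin and at 0.70 for peroxide, and Cry1 at -1.01 and -0.21.

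Nr1d1, which encodes REV-ERB alpha, lies at chr11:98767932-98775333. It measured 134, 134 and 129 CPM in the doxorubicin group, against 45.9, 43.3 and 29.3 CPM in its vehicle. The doxorubicin libraries agreed closely and lay far above the vehicle libraries, with a ratio of the means of 3.34. Nr1d1 rose by 1.74 ± 0.50 on the log2 scale (limma, adjusted p = 0.014). Without doxorubicin vehicle replicate 3, the lowest of that group, the log2 fold change was 1.55 and the adjusted p 0.0511, and without peroxide replicate 2 as well it was 1.55 with an adjusted p of 1.12e-07. The spread is shared by all groups in the fit, so peroxide replicate 2 enters the p-value of this comparison too. Without that library alone the log2 fold change was 1.74 (limma, adjusted p = 2.36e-06). In a separate fit of the doxorubicin experiment it was also 1.74 (limma, adjusted p = 0.000257).

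Peroxide replicate 2 stood alone in Nr1d1. The peroxide libraries measured 78.7, 12.9 and 68.9 CPM, against 60.2, 60.4 and 59.1 CPM in the peroxide vehicle. Replicate 2 was at 0.175 times the mean of the other 2 peroxide libraries, a deviation of -2.42 on the log2 scale that only 50 of 13269 tested genes (0.377%) matched or passed in that library. The other 9 clock genes deviated by at most 0.36 in this library. With all libraries the log2 fold change after peroxide was -0.51 ± 0.50 (limma, adjusted p = 0.422). Without replicate 2 it was 0.29 (adjusted p = 0.141), and without doxorubicin vehicle replicate 3 as well it was 0.29 with an adjusted p of 0.00661. The direction of the peroxide effect on Nr1d1 therefore rests on 1 library. For Nr1d1 the effects differed by 2.26 ± 0.71 (limma, adjusted p = 0.0328) with all libraries and 1.45 (adjusted p = 0.000786) without peroxide replicate 2. It was 1.25 (adjusted p = 6.6e-05) without doxorubicin vehicle replicate 3 as well. It did not pass when any 1 of doxorubicin replicates 2 and 3, doxorubicin vehicle replicate 3 and the 3 peroxide vehicle libraries was left out, with differences of 2.06 to 2.28 and adjusted p of 0.0543 to 0.0746, nor with no filter (adjusted p = 0.0771).

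**Figure D3:**
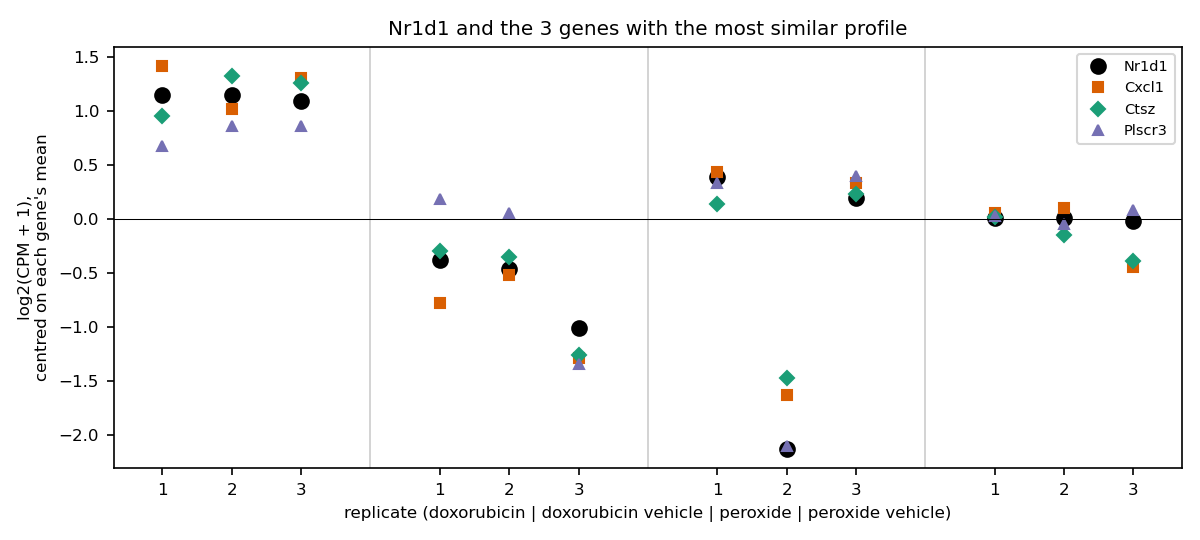
Levels of Nr1d1 and of the 3 genes most like it in each of the 12 libraries by group (vertical axis, log2(CPM + 1) centred on each gene's mean). All 4 genes are lowest in peroxide replicate 2, at 12.9 CPM for Nr1d1 and 3.15 CPM for Cxcl1. The 3 were picked for closeness to Nr1d1 in these libraries, so this follows from the choice.

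Nr1d2, which encodes REV-ERB beta, lies at chr14:18204054-18239127. It measured 12.2, 12.6 and 13.6 CPM after doxorubicin, against 9.72, 9.8 and 10.4 CPM in its vehicle. The groups did not overlap, and Nr1d2 rose by 0.33 ± 0.09 on the log2 scale (limma, adjusted p = 0.00808), a call lost with upper-quartile scaling (0.22, adjusted p = 0.137). In the peroxide libraries it measured 11.7, 11.1 and 11.8 CPM, against 11.5, 12.8 and 12.3 CPM in the vehicle, with a log2 fold change of -0.08 (adjusted p = 0.482, interval -0.27 to 0.11). For Nr1d2 they differed by 0.41 ± 0.12 (limma, adjusted p = 0.0262). It did not pass with upper-quartile scaling (0.28, adjusted p = 0.203), or without doxorubicin replicate 3 (0.37, adjusted p = 0.0658), doxorubicin vehicle replicate 1 (0.39, adjusted p = 0.0544) or 2 (0.40, adjusted p = 0.053), or peroxide vehicle replicate 2 (0.38, adjusted p = 0.0627). Nor did it pass without peroxide replicate 2 and doxorubicin vehicle replicate 3 together (0.41, adjusted p = 0.0554).

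Dbp, the output gene, lies at chr7:45705088-45710203 and rose after both treatments. After peroxide it measured 9.87, 11.2 and 7.89 CPM, against 4.26, 4.55 and 5.57 CPM in the vehicle, a ratio of means of 2.01. The groups did not overlap, and the log2 fold change was 0.87 ± 0.15 (limma, adjusted p = 0.000571). After doxorubicin it measured 15.6, 12.3 and 16.3 CPM, against 11.6, 9.77 and 10.5 CPM in the vehicle, with a log2 fold change of 0.43 ± 0.15 (limma, adjusted p = 0.0349). That call was lost with upper-quartile scaling (0.32, adjusted p = 0.169), with no filter (adjusted p = 0.0677), without doxorubicin replicate 1 (0.38, adjusted p = 0.0866) or 3 (0.35, adjusted p = 0.12) and without doxorubicin vehicle replicate 2 (0.37, adjusted p = 0.106) or 3 (0.42, adjusted p = 0.0789). It was also lost without peroxide replicate 2 and doxorubicin vehicle replicate 3 together (0.42, limma, adjusted p = 0.057). The same held without all 3 libraries that stood apart (0.38, limma, adjusted p = 0.103). The effects differed by -0.45 (adjusted p = 0.124).

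A difference between the treatment effects thus passed for 5 of the 10 clock genes, 2 with the larger log2 value for doxorubicin (Nr1d1 and Nr1d2) and 3 with the larger value for peroxide (Arntl, Per3 and Cry1), against 33.6% of all tested genes (13.5% in the first direction and 20.1% in the second). The count was 3 without doxorubicin replicate 3 and 3 without peroxide vehicle replicate 2, and with upper-quartile scaling 1 gene passed in the first direction and 3 in the second.

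Exons of 4 members overlap those of genes on the opposite strand, and whether reads were counted by strand is not given in the sources used here. Nr1d1 shares 263 bases (8.5% of its exons) with Thra, a thyroid hormone receptor gene. Thra measured 14.9, 17.1 and 16.1 CPM after doxorubicin against 14.5, 12.4 and 10.4 CPM in its vehicle, and 16.0, 14.4 and 16.1 CPM after peroxide against 7.69, 10.4 and 9.14 CPM in its vehicle. Dbp shares 539 bases (18.0% of its exons) with Sphk2, a sphingosine kinase gene. Sphk2 measured 23.2, 33.0 and 31.4 CPM after doxorubicin against 24.8, 23.8 and 14.2 CPM in its vehicle, and 23.5, 10.7 and 22.6 CPM after peroxide against at least 19.0 CPM in every library of its vehicle. Reads of Dbp and Sphk2 in the shared stretch cannot be told apart without strand. Cry2 shares 295 bases (4.7%) with D930015M05Rik, which reached at most 0.0987 CPM, and Arntl shares 33 bases (0.4%) with Gm45355, listed at 0 in every library. In Nr1d2, 5.13% of the 50-base windows of its transcripts also occur in AC170187.1, so part of its counts could be split with that gene.

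Within a library, the per-length ratio of Nr1d1 to Arntl sets a repressor against its target. It was 40.1, 50.6 and 42.8 in the doxorubicin libraries, against 9.89, 10.1 and 6.92 in their vehicle. In the peroxide libraries it was 15.2, 3.11 and 14.2, against 16.5, 15.9 and 13.0 in theirs. The doxorubicin libraries stood above all others in this ratio, and peroxide replicates 1 and 3 lay within the range of their vehicle.

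The per-length ratio of Cry1 to Cry2 was 0.404, 0.315 and 0.419 in the doxorubicin libraries, against 1.1, 1.22 and 1.35 in their vehicle. In the peroxide libraries it was 0.558, 0.677 and 0.724, against 1.68, 1.26 and 1.05 in theirs. Cry1 thus exceeded Cry2 per length in all 6 vehicle libraries and in none of the 6 treated ones. The per-length ratio of Arntl to Clock was 0.72, 0.566 and 0.628 after doxorubicin against 0.79, 0.899 and 0.742 in the vehicle. It was 1.13, 1.11 and 0.94 after peroxide against 0.491, 0.618 and 0.758 in the vehicle, so the treated libraries lay below their vehicle in the first experiment and above it in the second. These 3 ratios were chosen with the values known and are given without a test.

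**Figure D4:**
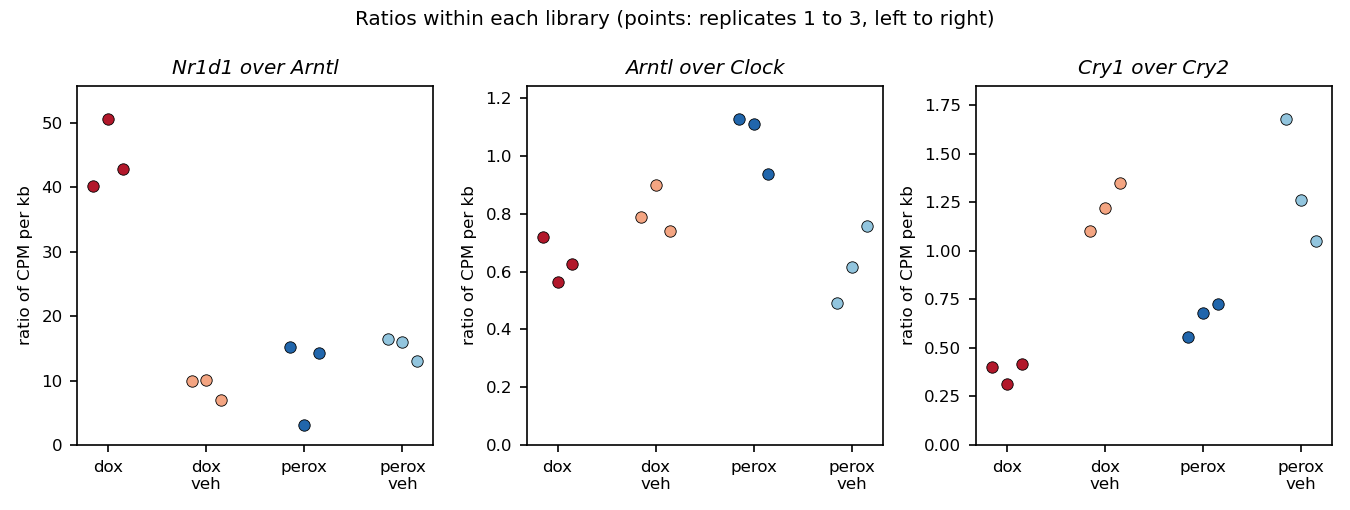
Ratios of per-length levels within each library for Nr1d1 over Arntl, Arntl over Clock and Cry1 over Cry2 (vertical axes from 0), with points for libraries by group. The Nr1d1 to Arntl ratio is 40.1 to 50.6 in the doxorubicin libraries and at most 16.5 in the others.

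Of the members, Nr1d1, Dbp and Cry1 varied most over the 12 libraries, with SDs of 0.95, 0.57 and 0.40 on the log2 scale. The genes with the closest profiles were found by the root mean square difference of log2 values centred on each gene's mean over the 12 libraries. For Nr1d1 these were Cxcl1 (0.26), a neutrophil-attracting chemokine, Ctsz (0.26), a lysosomal protease, and Plscr3 (0.31). These 3 were picked for closeness to Nr1d1 in the same libraries, so low values where Nr1d1 is low follow from the choice. All 3 were low in peroxide replicate 2, at 3.15, 98.9 and 26.9 CPM, where peroxide replicate 1 had 16.4, 304 and 150 CPM. Like Nr1d1, they were also lowest of their group in doxorubicin vehicle replicate 3. They measured 4.26, 115 and 46.0 CPM there, where doxorubicin vehicle replicate 1 had 6.51, 224 and 135 CPM. Both libraries stood apart from their groups in the principal component analysis. For Dbp the closest genes were Xdh (0.14), Ly6c2 (0.15) and Aldh1b1 (0.17), and for Cry1 Phf10 (0.09), Them4 (0.10) and Pan2 (0.12). The 12 libraries fall into 4 groups, so they are not independent points of such a profile.

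The vehicle groups, which differ in experiment and day of lysis, differed from each other in 4 of the 10 clock genes, against 28.0% of all tested genes. Dbp was higher in the doxorubicin vehicle group than in the peroxide vehicle group by 1.01 ± 0.15 on the log2 scale (limma, adjusted p = 0.000624). Cry2 (0.38, adjusted p = 0.0336) and Per3 (0.26, adjusted p = 0.0299) were also higher there, and Nr1d2 was lower (-0.27, adjusted p = 0.0372). The Dbp call was kept whichever library was left out, but the count of 4 came down to 1 without doxorubicin vehicle replicate 2 and to 2 without any other single vehicle library. Without peroxide replicate 2, which enters through the shared spread, Nr1d1 also passed, lower in the doxorubicin vehicle group (limma, log2 fold change -0.61, adjusted p = 0.00648). Without that library and doxorubicin vehicle replicate 3, Nr1d1 again passed (-0.42, adjusted p = 0.00222), while Per3 (0.21, adjusted p = 0.0881) and Nr1d2 (-0.29, adjusted p = 0.0543) did not. Without doxorubicin replicate 1 as well, the adjusted p was 0.0019 for Nr1d1, 0.0816 for Per3 and 0.0551 for Nr1d2. With upper-quartile scaling 3 were higher and 0 lower. Day, schedule and experiment cannot be told apart in this comparison.

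The wider clock list held 34 further genes in 8 roles, of which 31 were tested. After doxorubicin 4 rose and 13 fell, 17 calls or 54.8% against 49.9% of all tested genes, with a median log2 fold change of -0.26 against -0.03 for all tested genes. After peroxide 10 rose and 11 fell, 21 calls or 67.7% against 50.7%, with a median of 0.04 against -0.01. Both treatments called 13 of these genes, or 41.9% of those tested, against 30.1% of all tested genes, and 11 of them in the same direction, or 35.5% against 26.5%.

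Among the transcription factors, Rora, an activator of Arntl that competes with the REV-ERB receptors, measured 19.8, 19.6 and 22.6 CPM after doxorubicin against 12.6, 13.0 and 13.3 CPM in its vehicle. After peroxide it lay between 17.2 and 22.6 CPM against 7.22, 6.96 and 8.96 CPM in the vehicle. No library of either treatment overlapped its vehicle, and Rora rose by 0.63 after doxorubicin and 1.26 after peroxide. Its relative Rorb fell by 0.51 after doxorubicin and by 0.30 after peroxide. The second call was lost in 10 of 24 alternative settings. Among them was leaving out peroxide replicate 2 and doxorubicin vehicle replicate 3 together (-0.22, limma, adjusted p = 0.06). Arntl2, a paralogue of Arntl, rose by 0.82 after doxorubicin and 0.65 after peroxide, and Tef, a D-box factor related to Dbp, rose by 0.55 and 0.50. Nfil3, which represses at D-boxes, went in opposite directions. It measured 6.66, 7.45 and 6.07 CPM after doxorubicin against 10.5, 9.8 and 9.03 CPM in its vehicle, and 8.66, 10.5 and 8.04 CPM after peroxide against 5.57, 5.43 and 5.03 CPM in its vehicle. Its log2 fold changes were -0.48 and 0.66, and the difference of -1.14 passed (limma, adjusted p = 0.000843).

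The E-box repressors Bhlhe40 and Ciart fell after both treatments. Ciart, an inhibitor of the Arntl and Clock pair, measured 15.8, 11.9 and 16.4 CPM after doxorubicin against 29.4, 30.1 and 33.6 CPM in its vehicle, and 15.1, 17.3 and 12.6 CPM after peroxide against 24.2, 21.6 and 23.0 CPM in its vehicle. Its log2 fold changes were -1.04 and -0.59, and those of Bhlhe40 were -0.39 and -0.31, the last not passing with upper-quartile scaling (limma, adjusted p = 0.0594). Of the 8 enzymes that act on clock proteins, 2 were called for doxorubicin (25.0%, against 49.9% of all tested genes) and 3 for peroxide (37.5%, against 50.7%). The one called for both was Usp2, a deubiquitinase. It measured 29.0, 30.9 and 26.6 CPM after doxorubicin against 9.42, 9.35 and 6.51 CPM in its vehicle, and 19.7, 19.3 and 20.4 CPM after peroxide against 8.93 to 10.6 CPM in its vehicle. No treated library overlapped its vehicle, and Usp2 rose by 1.68 and 0.94 on the log2 scale.

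Of Timeless and its partner, Tipin, which acts at replication forks, fell by 0.84 after doxorubicin and by 0.88 after peroxide. Among 7 cofactors, the deacetylase gene Sirt1 fell by 0.59 and by 0.92, and Nono, which encodes an RNA-binding partner of the PER proteins, fell by 0.69 and by 0.57. Among 6 known clock outputs, Klf10 fell by 0.58 and by 0.47. Tsc22d3, a glucocorticoid-induced gene, fell by 0.34 after doxorubicin and rose by 0.23 after peroxide, the second call being lost in 8 of 24 settings, among them without the same 2 libraries (0.19, adjusted p = 0.0768). Npas2, a paralogue of Clock, was below the filter at 0.605, 0.239 and 0.227 CPM after doxorubicin against 0.0493, 0 and 0 CPM in its vehicle, and at 0.496, 0.371 and 0.327 CPM after peroxide, while it was listed at 0 in the 3 peroxide vehicle libraries. Hlf, a D-box factor related to Dbp, was also below the filter and stayed at or below 0.402 CPM in all 12 libraries.

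**Figure D5:**
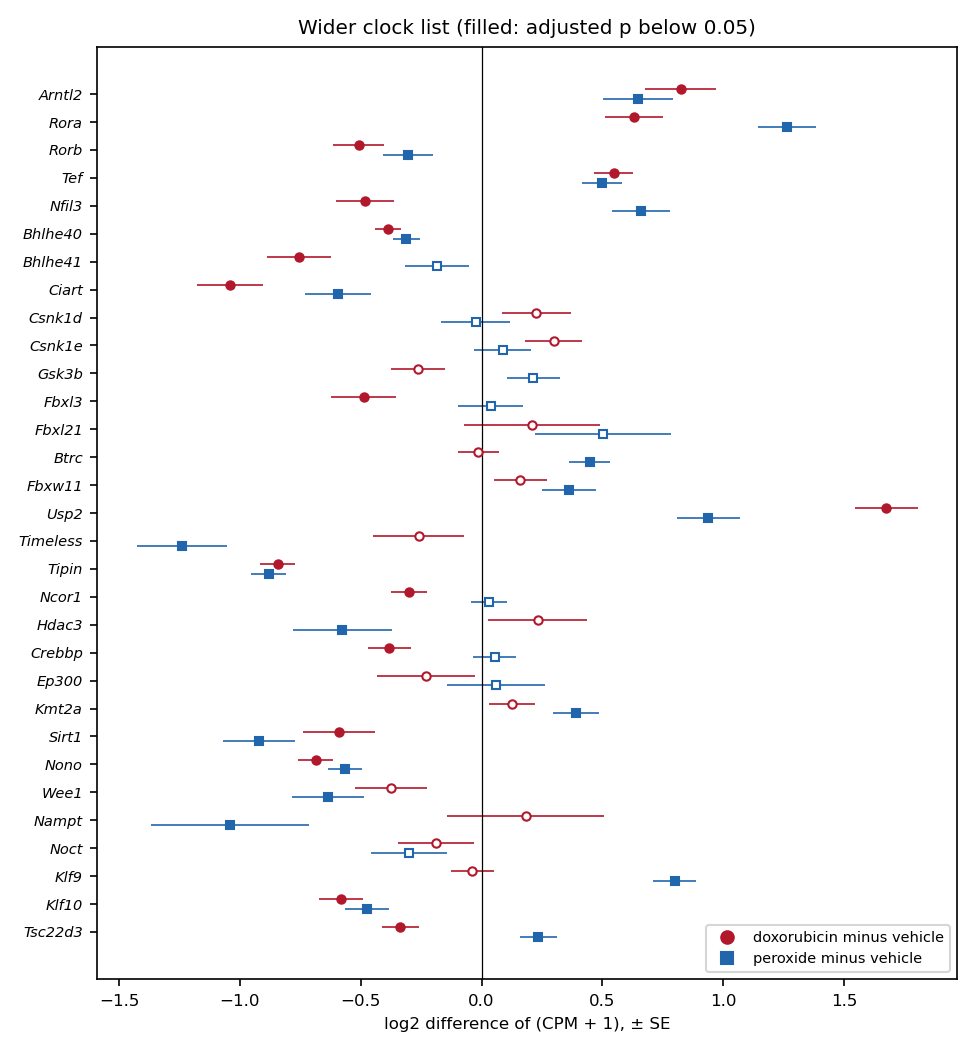
Log2 fold changes of the 31 tested genes of the wider clock list (log2(CPM + 1) scale) in order of role, with bars for the SE, for doxorubicin and for peroxide, each against its own vehicle. Usp2 lies at 1.68 and 0.94, Rora at 0.63 and 1.26, and Nfil3 at -0.48 and 0.66.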

How the data were processed

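RNA-seq of 12 libraries in 4 groups of 3 was used. The values are CPM, deposited by the authors as 1 table of all libraries. Total RNA was purified with RNeasy columns and sequenced on a NovaSeq instrument, per the labels' protocols. The tools bcl2fastq and DRAGEN and the build mm10 are named without versions, per the submitters' processing notes. How reads were counted, with or without strand and on which annotation, is not stated there or in the labels.

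The table had 55774 lines, and the 168 repeated identifiers had identical values, of which 1 line each was kept (55487 genes). Depth was read from the commonest nonzero value of each library, taken as the CPM of a single read. Values of low genes were often not whole reads, so no count model was run. A single limma model with a mean-variance trend (limma 3.58.1, R 4.3.3) was fitted to log2(CPM + 1) in the 4 groups, leaving 8 residual and about 3.07 prior degrees of freedom (the median). It was checked on simulated data. The tested genes had at least 1 CPM in at least 3 libraries, and p-values were adjusted by Benjamini-Hochberg over all 13280 of them within each comparison. Gene positions and exon lengths are from GENCODE M21 on GRCm38.

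The members, the wider list, the markers and the ratios were chosen with earlier results of these data known. All members were described, and from the wider list the genes called for both treatments and those below the filter, of which 1 is not reported here. The 3 members with the largest SD were given their 3 nearest genes. Genes that overlap a member were also named. The letters of the ROR core were narrowed to its textbook form after wider and longer ones had been tried. The 24 alternatives covered the pseudocount, filter, scaling, trend, array weights, separate fits, a replicate block and 14 settings without 1 to 3 libraries.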

Additional observations from a re-analysis of the deposited data

Results flagged for a closer look

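The difference between the doxorubicin effect and the peroxide effect passed the test (limma, adjusted p below 0.05) for 5 of the 10 clock genes. It also passed for 4 of the 13 genes of the wider list that both treatments called. Over the whole wider list it passed for 11 of the 31 tested genes (35.5%), against 33.6% of all tested genes. All differences are on the log2 scale with the peroxide effect subtracted. Per3 had a difference of -1.03, with a fall after doxorubicin and a rise after peroxide. Nfil3 had -1.14 (adjusted p = 0.000843) and Tsc22d3 -0.57 (adjusted p = 0.00333), and their values also lay in opposite directions. Arntl had -0.72 and Cry1 -0.80, called after doxorubicin and not after peroxide. Rora had -0.63 (adjusted p = 0.0171) and Usp2 0.74 (adjusted p = 0.0124), each raised by both treatments. Nr1d1 had 2.26 and Nr1d2 0.41. For Nr1d1, peroxide replicate 2 measured 12.9 CPM where peroxide replicates 1 and 3 had 78.7 and 68.9 CPM. The difference was 1.45 without that library.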

How the results depend on the processing

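Of 928 member values under the alternatives, 837 kept their direction and side of the threshold, 54 lost the call, 13 gained one and 24 reversed. A reversed value was counted only as reversed, even where it gained a call. Nr1d1 for peroxide did so without peroxide replicate 2 and doxorubicin vehicle replicate 3 (limma, adjusted p = 0.00661). It also did so without these and doxorubicin replicate 1 (limma, adjusted p = 0.00653). Of 624 values of the named wider genes, 605 kept both and 19 lost the call. Leaving out 1 library gave 4 to 8 clock genes called for doxorubicin (4 without doxorubicin vehicle replicate 3), 4 to 4 for peroxide, 3 to 6 for the difference between the effects and 1 to 5 between the vehicles. For the wider list it gave 17 to 19 for doxorubicin and 16 to 22 for peroxide. Between the vehicles, 2 clock genes were called with no filter and 1 with the replicate block. As coded, the block sets the vehicle comparison at replicate 1 of each experiment and not at the group means. That count of 1 therefore cannot be set beside the main count, though the block's vehicle values are among those counted above. Same-numbered libraries did not deviate together (r of -0.311, 0.194 and -0.277 on day 7, and 0.143, 0.0304 and -0.237 on day 6). On day 7 no library correlated best with its own number in the other group. On day 6, 1 library each of replicates 1 and 2 did so, and 0 of replicate 3. The block gave 5 clock genes called for doxorubicin, 4 for peroxide and 4 for the difference, without Per1 (adjusted p = 0.0513) and Dbp (0.0669) for doxorubicin and Nr1d2 (0.0754) for the difference.

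The reversals were in values that did not pass with all libraries. Without peroxide replicate 2 and doxorubicin vehicle replicate 3, Per2 was at 0.0057 for doxorubicin and -0.0469 for peroxide. In that setting it was at 0.0526 for the difference and -0.0182 between the vehicles, and Nr1d1 was at 0.29 for peroxide. Without these and doxorubicin replicate 1, Per2 was at -0.0469 for peroxide and -0.0182 between the vehicles, and Nr1d1 at 0.29. Array weights gave 0.13 for Nr1d1 after peroxide. Leaving out 1 library gave -0.159 to 0.0268 for Per2 after doxorubicin, -0.0707 to 0.167 after peroxide, -0.209 to 0.0286 for its difference and -0.0704 to 0.167 between the vehicles. It gave -0.18 to 0.05 for Per1 and -0.96 to 0.29 for Nr1d1 after peroxide. Beyond the construction of these settings, the cause was not tested. Upper-quartile scaling moved the median of all tested genes for doxorubicin to -0.131, against -0.0304 as deposited, and that of the difference to -0.181, against -0.0673. No clock gene changed direction with either scaling. Depth limits what can be seen in Per2, at 24 to 60 estimated reads per library.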
